A study of Homo sapiens with 12 samples.

Results

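Mitochondrial ribosomal protein genes were followed through 12 RNA sequencing libraries of Jurkat cells, a human leukaemic T cell line. The members were the 78 genes whose symbol is MRPS or MRPL followed by a number and at most 1 letter. They were found in both deposited tables, 78 of 55514 genes in the table of ZNF683 and Mock libraries and 78 of 44389 genes in the table of Dox+ and Dox- libraries, and all 78 were tested in both. By symbol, 29 belong to the small and 49 to the large subunit of the mitochondrial ribosome. In solved structures of the human mitoribosome MRPS30 and MRPS18A sit in the large subunit, and MRPS36 has since been assigned to the oxoglutarate dehydrogenase complex, which leaves 26 small and 51 large subunit members. A total of 46 members have a bacterial counterpart by their structural name and 31 do not, MRPS36 being in neither class.

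The design set 3 ZNF683 libraries against 3 Mock libraries, and 3 Dox+ libraries against 3 Dox- libraries of a line titled Hobit, the protein that ZNF683 encodes. ZNF683 is a zinc finger transcription factor of effector and tissue-resident lymphocytes, and the labels give the ZNF683 cells as induced by doxycycline. Dox+ cells received doxycycline at 1 ug/uL as the labels state it and Dox- cells none. For Mock cells the labels are silent on doxycycline. The drug and the induction of ZNF683 therefore cannot be told apart between Dox+ and Dox- libraries. ZNF683 and Mock libraries may also differ in doxycycline. The labels do not name separate cultures or clones, so every p-value here measures the spread between libraries, which may be technical. Values are TPM, a transcript level per length scaled to a common total in each library, and changes are differences on the log2(TPM + 1) scale ± the standard error of limma, a linear model fitted over all genes of a table.

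Mitochondrial ribosomes translate the few messenger RNAs of the mitochondrial genome, all of which encode subunits of the respiratory chain and ATP synthase. Their ribosomal RNAs are transcribed inside the organelle, while every protein of the particle is encoded in the nucleus, made in the cytosol and imported. Doxycycline belongs to the tetracyclines, which bind the decoding side of bacterial small subunits and can also inhibit mitochondrial translation.

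ZNF683 itself was measured at 1.17, 1.76 and 1.04 TPM in ZNF683 libraries 1, 2 and 3, against 0.715, 1.59 and 0.681 TPM in Mock libraries 1, 2 and 3, and these groups overlapped (exact permutation test, two-sided p = 0.5). In the other table it was 0.453, 0.774 and 0.571 TPM in Dox+ libraries, against 0.115, 0.239 and 0.451 TPM in Dox- libraries (exact permutation p = 0.1, the smallest that 3 against 3 allows). Libraries are called by their labels throughout. The 10 T cell markers were at 22.0 TPM or more in every library, and 10 of the 16 markers of other cells listed in both tables were under 1 TPM in all 12, the highest of the rest being CD79A at up to 54.7 TPM. A long noncoding transcript, AL135790.1, made up 50.7% of the total of Dox- library 1, 12.8% of that of Dox- library 2 and 4.94% to 10.5% elsewhere. Because TPM sums to a fixed total, such a share lowers every other value of the library. For this reason changes are also given after median-of-ratios scaling, which divides each library by its median ratio to the geometric means of the genes; it moved the median change of all tested genes to 0.00 in both tables, against 0.03 for ZNF683 and Mock and 0.32 for Dox+ and Dox- before scaling.

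All 78 members were expressed, and all lay above the median of the genes tested, which was 10.4 TPM in the table of ZNF683 and Mock and 11.1 TPM in the doxycycline table. The median member stood at 115 TPM in the first table and 89.2 TPM in the second, and no library held any member below 12.7 TPM. MRPL51, a large subunit protein without a bacterial counterpart, was the most abundant in both tables, with means of 349 and 403 TPM. MRPL22, which lines the exit tunnel, came next in both. The remaining members of the 5 highest were also the same in both tables: MRPL37, MRPL16, which sits beside the peptidyl transferase centre, and MRPL42. MRPS17, an RNA-binding protein of the small subunit body, was the lowest in both tables at 28.8 and 23.2 TPM. MRPL50, MRPL44, which carries a fold of the ribonuclease III family, and MRPL54 were also among the 5 lowest in both tables, with MRPL30 in the first and MRPS2 in the second.

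Proteins that occupy the same particle, mostly in single copies, thus came from transcripts whose levels spanned 12.1-fold in the first table and 17.3-fold in the second. The median was 97.2 TPM for small and 128 TPM for large subunit members in the table of ZNF683 and Mock, and 79.0 and 96.2 TPM in the doxycycline table. The order of the members was similar in both tables, with a Spearman rho of 0.92 over the 78 members, 7 of the 10 highest shared and 8 of the 10 lowest shared. Between single libraries rho over the 78 members ran from 0.67 to 0.99. The lowest of these values set Dox- library 2 beside ZNF683 library 2. Neighbours in the order were often within their own spread: MRPL22 ranged over 241 to 388 TPM and MRPL37 over 272 to 356 TPM across the ZNF683 and Mock libraries.

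Of the 3 paralogues related to bacterial S18, MRPS18C was the most abundant, at 224 and 198 TPM in the 2 tables. MRPS18B, which lies in the small subunit, was at 109 and 81.5 TPM, and MRPS18A, which lies in the large subunit, at 108 and 64.8 TPM. MRPS18C was thus above both paralogues, while MRPS18A and MRPS18B did not separate in the first table. Reads from pseudogenes are a limit for some members. Pseudogenes named after a member were listed for 36 members in the first table and 32 in the second, and they reached 10% of the level of the gene for MRPS31 (39.3% and 44.7%) and, in the doxycycline table, MRPL45 (12.7%). The levels of MRPS31 and MRPL45 are therefore uncertain.

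**Figure D1:**
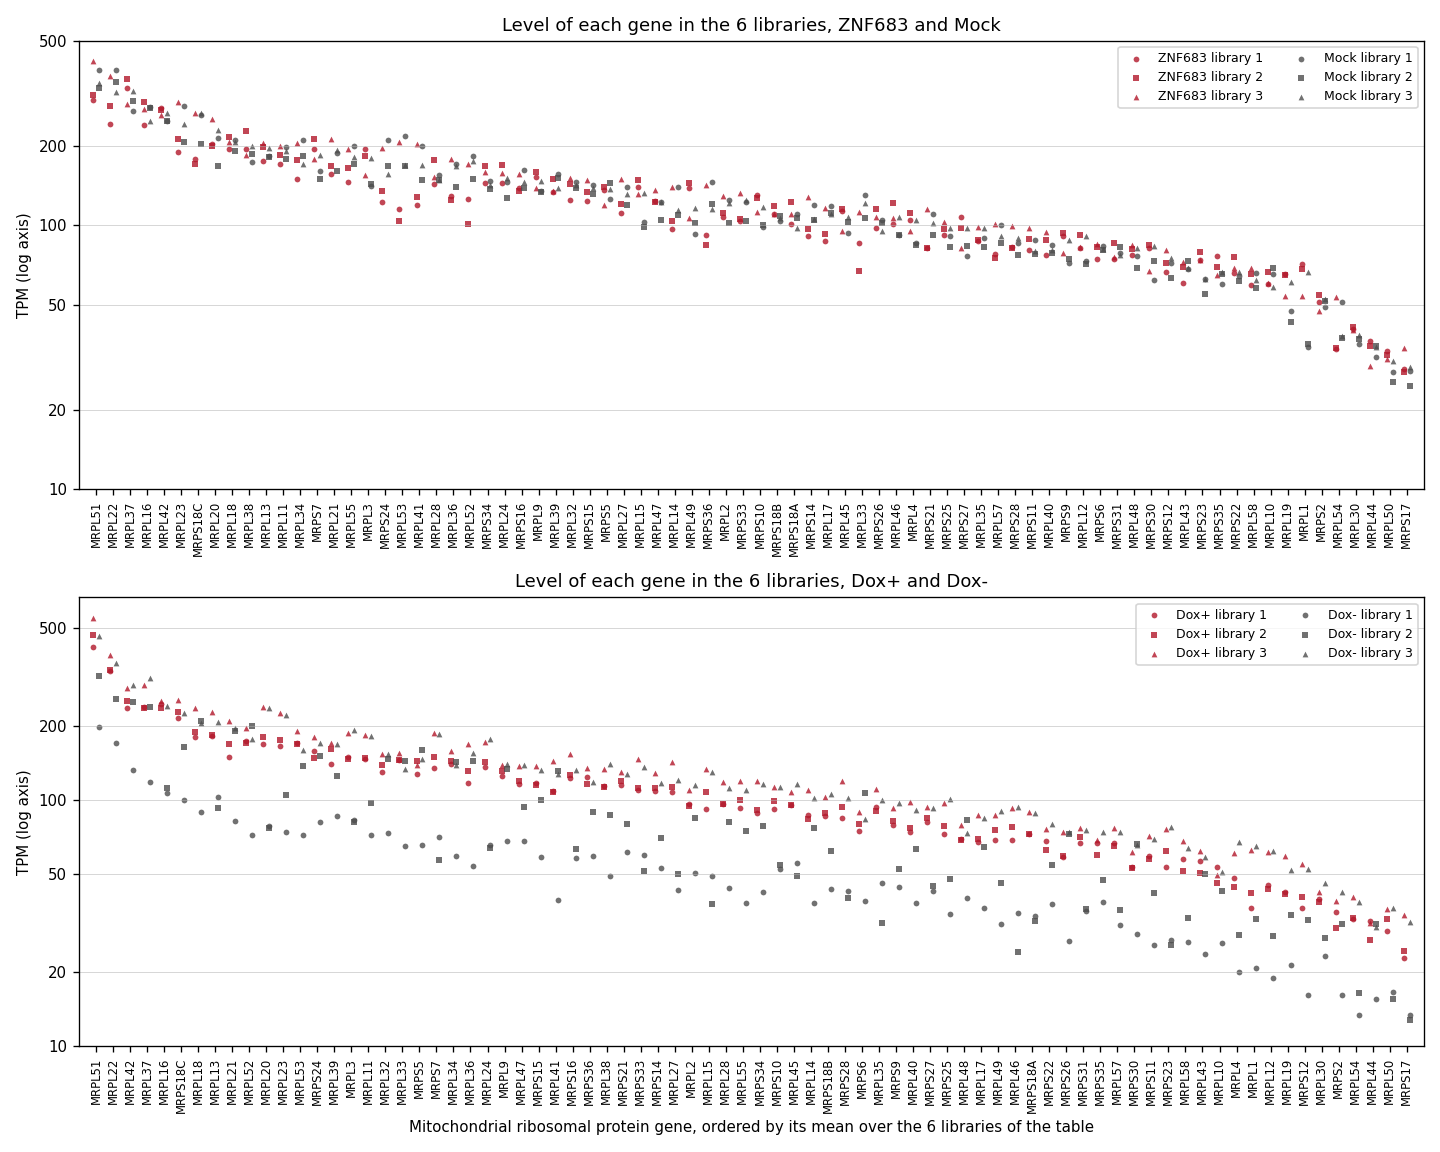
Level in TPM (log axis) of each of the 78 genes in the 6 libraries of each table, ZNF683 and Mock above and Dox+ and Dox- below, with 1 symbol per library and genes ordered by their mean. MRPL51 is highest and MRPS17 lowest in both panels, and Dox- library 1 lies below every Dox+ library for 78 of 78 genes. AL135790.1 made up 50.7% of the total of that library, which lowers every other value in it.

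The promoters of these genes were searched for the letters of factors known to act on nuclear genes of mitochondria, in windows of 250 bases before and 50 bases after each start in the RefSeq table for GRCh38.p14. A total of 69 of the 78 members matched, with 85 windows among 35116. The ETS core CCGGAAG, bound by the GABP family, was present on either strand in 38.8% of member windows, against 10.3% of all windows. The YY1 letters AAGATGGC were in 27.1% of member windows, against 2.89% of all windows, and mostly beyond the start: within the 250 bases upstream the shares were 8.24% and 1.36%. The SP1 box GGGCGG was in 60.0% of member windows, against 45.0% of all. The NRF1 core GCGCATGC was in 7.06%, against 3.05%, and the longer NRF1 palindrome, which holds the core, in 1.18%, against 1.24%. These shares describe letters and were not tested, and a match is not a binding site. Shown are the 100 bases upstream of the start for the members with an ETS core wholly inside that stretch whose groups did not overlap, or whose unadjusted p was under 0.05, in 1 of the comparisons as deposited. Capitals mark CCGGAAG or its reverse complement.
MRPS23 (chr17:57850045-57850144, minus strand): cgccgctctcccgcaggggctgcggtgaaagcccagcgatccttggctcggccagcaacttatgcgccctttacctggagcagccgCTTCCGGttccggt
MRPL27 (chr17:50373185-50373284, minus strand): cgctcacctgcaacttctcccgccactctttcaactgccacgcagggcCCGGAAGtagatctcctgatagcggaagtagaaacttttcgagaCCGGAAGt
MRPL33 (chr2:27771619-27771718, plus strand): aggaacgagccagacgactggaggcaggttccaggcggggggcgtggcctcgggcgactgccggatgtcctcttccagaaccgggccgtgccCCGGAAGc
MRPL53 (chr2:74472681-74472780, minus strand): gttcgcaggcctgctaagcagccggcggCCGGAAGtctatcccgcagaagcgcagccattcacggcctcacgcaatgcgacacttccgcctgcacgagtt

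MRPL27 holds 2 cores, the nearer one 8 bases before the start, which is also where the core of MRPL33 begins, and the cores of MRPS23 and MRPL53 begin 14 and 72 bases before it. MRPL53 has a second core at the start itself, outside the stretch shown. A further 4 members are shown over 30 bases around a YY1 match just downstream of the start, with AAGATGGC in capitals. They were chosen because 3 of them are among the lowest members of Dox- library 2, and MRPS30 among the highest.
MRPS7 (chr17:75261887-75261916, plus strand): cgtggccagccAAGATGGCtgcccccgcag
MRPL20 (chr1:1407260-1407289, minus strand): ccgacccgggcAAGATGGCagcggcgctgc
MRPL46 (chr15:88467362-88467391, minus strand): tgggagaacgaAAGATGGCggcgcccgtaa
MRPS30 (chr5:44808949-44808978, plus strand): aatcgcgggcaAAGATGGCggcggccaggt

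The match begins 19, 15, 8 and 13 bases after the start in MRPS7, MRPL20, MRPL46 and MRPS30. GABPA, GABPB1, YY1 and NRF1 were not called in either comparison. GABPA, the DNA-binding subunit of GABP, stood at 18.1, 16.8 and 19.4 TPM in the ZNF683 libraries, against 22.8, 23.9 and 24.0 TPM in the Mock libraries, with all ZNF683 libraries below all Mock libraries (log2 change -0.37 ± 0.10, limma adjusted p = 0.28). GABPB1, its partner subunit, differed in the opposite direction, at 56.9, 56.9 and 48.6 TPM in the ZNF683 libraries, against 36.5, 40.7 and 47.6 TPM in the Mock libraries (log2 change 0.38 ± 0.13, limma adjusted p = 0.33). All ZNF683 libraries were above all Mock libraries for GABPB1. Between ZNF683 and Mock, 8.71% of all genes were higher and 8.51% lower in this way.

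No mitochondrial ribosomal protein gene was called between ZNF683 and Mock libraries, and their summed level differed by less than the spread between libraries. The members together summed to 9305, 9887 and 10691 TPM in ZNF683 libraries 1, 2 and 3, against 10269, 9368 and 10165 TPM in Mock libraries 1, 2 and 3. These sums overlapped, and averaged 9961 ± 696 TPM in ZNF683 and 9934 ± 493 TPM in Mock libraries (SD, n = 3 each), about 1% of all TPM in both groups. In bulk RNA, fewer cells with a transcript and less RNA per cell cannot be told apart. By limma with Benjamini-Hochberg adjustment 0 of 78 members passed an adjusted p of 0.05, where 0.0301% of the 16588 genes tested did. At an unadjusted p below 0.05 there were 3 members, MRPS23, MRPL15 and MRPL33, against 13.0% of all genes. The median change of the members was 0.05, beside 0.03 over all tested genes, with 44 members above 0 and 34 below. In 4 members every ZNF683 library lay above every Mock library and in 0 every one lay below, where 8.71% and 8.51% of all genes did. After median-of-ratios scaling 7 were above and 0 below in this way, where 9.44% and 10.1% of all genes were, and 0 members were called, where 0.0301% of all genes were.

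Among small subunit members, MRPS23, a protein found in mitochondrial but not bacterial ribosomes, had the smallest p. It stood at 74.0, 79.3 and 73.6 TPM in ZNF683 libraries 1, 2 and 3, against 62.3, 55.1 and 62.6 TPM in Mock libraries 1, 2 and 3. Each ZNF683 library was above each Mock library (log2 change 0.33 ± 0.10, limma unadjusted p = 0.0102, adjusted p = 0.30). MRPS7, which contacts the messenger and transfer RNAs in the head of the subunit, was at 194, 211 and 178 TPM in the ZNF683 libraries, against 160.0, 149 and 184 TPM in the Mock libraries. ZNF683 library 3 was below Mock library 3 here, so the groups overlapped (log2 change 0.24 ± 0.12, limma adjusted p = 0.42). MRPS10, another head protein, had 129.8, 127 and 112 TPM in the ZNF683 libraries, against 98.8, 99.8 and 117 TPM in the Mock libraries, again with only ZNF683 library 3 inside the Mock range.

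The decoding protein MRPS12 differed less, at 66.7, 72.1 and 80.7 TPM in the ZNF683 libraries, against 71.7, 63.0 and 75.1 TPM in the Mock libraries (log2 change 0.06 ± 0.12, limma adjusted p = 0.80). MRPS11, on the platform, differed by 0.12 ± 0.11 on the log2 scale. MRPS36 and MRPS18C lay at the other end of the small subunit members. MRPS36 had 91.6, 84.1 and 142 TPM in ZNF683 libraries 1, 2 and 3, against 146, 120.3 and 116 TPM in Mock libraries 1, 2 and 3, and MRPS18C had 178, 169.9 and 267 TPM in ZNF683 libraries 1, 2 and 3, against 262, 203 and 265 TPM in Mock libraries 1, 2 and 3. In both genes ZNF683 libraries 1 and 2 were below every Mock library, while ZNF683 library 3 was inside the Mock range or above it (log2 changes -0.30 ± 0.20 and -0.27 ± 0.19, limma adjusted p = 0.51 and 0.53). MRPS18A and MRPS18B differed by 0.09 ± 0.11 and 0.09 ± 0.09. MRPS18B was one of the 4 genes without overlap, at 110.1, 118 and 111 TPM in the ZNF683 libraries, against 103, 108 and 106 TPM in the Mock libraries.

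Within the large subunit MRPL1, the protein of the flexible stalk at the transfer RNA exit, showed the highest change of all members. It had 71.1, 68.2 and 53.9 TPM in ZNF683 libraries 1, 2 and 3, against 34.5, 35.5 and 66.8 TPM in Mock libraries 1, 2 and 3. Mock library 3 was inside the ZNF683 range, so the groups overlapped (log2 change 0.55 ± 0.25, limma adjusted p = 0.39). MRPL15, a core protein of the large subunit, was measured at 139.8, 148 and 131 TPM in the ZNF683 libraries, against 103, 98.7 and 132 TPM in the Mock libraries. The groups overlapped between ZNF683 library 3 and Mock library 3 (log2 change 0.33 ± 0.13, limma unadjusted p = 0.0337, adjusted p = 0.36). MRPL49 and MRPL19 followed at 0.32 ± 0.15 and 0.29 ± 0.15, with limma adjusted p = 0.40 and 0.43. The remaining genes without overlap were MRPL30 at 40.5, 41.2 and 40.2 TPM in the ZNF683 libraries, against 35.4, 37.2 and 38.3 TPM in the Mock libraries and MRPL50 at 33.3, 32.2 and 31.2 TPM in the ZNF683 libraries, against 27.7, 25.4 and 30.6 TPM in the Mock libraries.

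The lowest change belonged to MRPL33, the shortest member by coding length. Its level was 85.7, 67.3 and 112 TPM in ZNF683 libraries 1, 2 and 3, against 130.0, 106 and 122 TPM in Mock libraries 1, 2 and 3. ZNF683 libraries 1 and 2 were the 2 lowest, and ZNF683 library 3 lay within the Mock range (log2 change -0.45 ± 0.18, limma unadjusted p = 0.0366, adjusted p = 0.37). MRPL53 had 115, 104 and 207 TPM in the ZNF683 libraries, against 218, 168 and 169 TPM in the Mock libraries, and MRPL52 had 125, 101 and 170.2 TPM in the ZNF683 libraries, against 184, 150.1 and 175 TPM in the Mock libraries. In both, ZNF683 libraries 1 and 2 were the lowest of the 6 and ZNF683 library 3 lay within the Mock range (log2 changes -0.44 ± 0.25 and -0.39 ± 0.19, limma adjusted p = 0.45 and 0.41).

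At the functional centres of the large subunit no member was called. MRPL3, MRPL2 and MRPL16, near the site of peptide bond formation, differed by 0.20 ± 0.14, 0.00 ± 0.12 and 0.00 ± 0.12. The stalk proteins MRPL10, MRPL11 and MRPL12, which recruit translation factors, differed by -0.04 ± 0.11, -0.03 ± 0.10 and 0.12 ± 0.12. At the exit tunnel, MRPL23, MRPL24 and MRPL45, the last of which holds the ribosome at the inner membrane, differed by -0.09 ± 0.18, 0.16 ± 0.11 and 0.09 ± 0.11. MRPL58, a peptidyl-tRNA hydrolase built into the subunit, differed by 0.06 ± 0.10. None of these 10 genes had a limma adjusted p below 0.51.

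The differences among libraries of the ZNF683 table varied with the length of the coding sequence. Each member's deviation in a library was taken as its log2(TPM + 1) after subtracting the library's median over the members and the member's own mean over the 6 libraries. Spearman's rho of this deviation with coding length, across the 78 members, was 0.60, 0.72 and -0.77 in ZNF683 libraries 1, 2 and 3, and -0.65, -0.04 and -0.05 in Mock libraries 1, 2 and 3. Longer members were thus relatively high in ZNF683 libraries 1 and 2, and shorter members relatively high in ZNF683 library 3 and Mock library 1. Over the 11399 tested genes with a known coding length the same correlation was 0.23, -0.08 and -0.24 in the ZNF683 libraries and -0.16, -0.02 and 0.22 in the Mock libraries. These are correlations across genes of 1 library, and genes are not independent replicates.

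Summed over the 39 members below and the 39 above the median coding length, the ratio of short to long was 0.976, 0.929 and 1.225 in ZNF683 libraries 1, 2 and 3, against 1.24, 1.09 and 1.12 in Mock libraries 1, 2 and 3. ZNF683 library 3 resembled Mock library 1 more than its own group. Its rho of levels over the 78 members was 0.99 with Mock library 1, and 0.91 and 0.89 with ZNF683 libraries 1 and 2. In the 26 shortest members, with 195 to 501 coding nucleotides, 19 of 26 were lower in ZNF683 than in Mock libraries by the fitted change and the median was -0.07. In the 26 longest, with 774 to 1449 nucleotides, 19 of 26 were higher and the median was 0.11. Across all tested genes of up to 513 coding nucleotides the median was -0.05, with 564 of 988 below 0. Across those above 772 nucleotides, with no upper limit, it was 0.09, with 6113 of 9077 above 0. Spearman's rho of the fitted change with coding length was 0.52 across the members and 0.02 across the 11399 genes of known coding length. The part of coding length in the differences between groups was not tested.

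**Figure D2:**
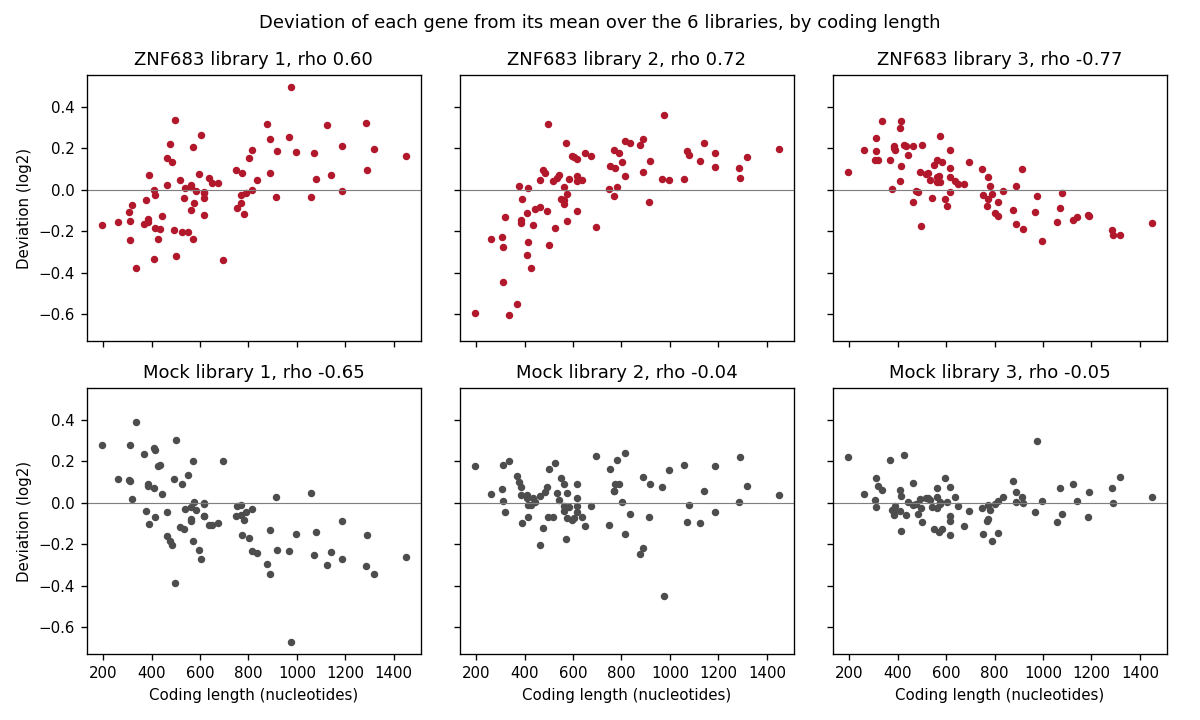
Deviation of each of the 78 genes (log2, relative to the library's median over these genes and to the gene's mean over 6 libraries) against coding length in nucleotides, 1 panel per library, ZNF683 above and Mock below, with Spearman's rho. The points rise with length in ZNF683 libraries 1 and 2 and fall in ZNF683 library 3 and Mock library 1.

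Leaving out ZNF683 library 3 gave no call either. Without it 37 members had groups that did not overlap, 19 higher and 18 lower, where 25.2% and 16.8% of all genes did. There were 19 members at an unadjusted p below 0.05, against 19.2% of all genes, and 0 called, where 0.0241% of all genes were. The smallest adjusted p of a member was then 0.19 by limma. Without ZNF683 library 1 the groups were apart in 12 members, all higher, where 12.9% of all genes were higher and 11.2% lower. Without ZNF683 library 2 they were apart in 7, 5 higher and 2 lower, where 10.2% and 11.3% of all genes were. Without Mock library 3 they were apart in 21, 20 higher and 1 lower, where 26.7% and 16.2% of all genes were.

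Between Dox+ and Dox- libraries all 78 members had a positive fitted change, and none was called. The members summed to 8467, 8720 and 10388 TPM in Dox+ libraries 1, 2 and 3, against 4189, 6645 and 9941 TPM in Dox- libraries 1, 2 and 3. Dox- library 3 was within the Dox+ range, and the other two Dox- libraries were below it. The means were 9192 ± 1044 TPM in Dox+ and 6925 ± 2886 TPM in Dox- libraries (SD, n = 3 each). By limma with Benjamini-Hochberg adjustment 0 of 78 members passed 0.05, where 0.396% of the 15148 genes tested did, and 3 members had an unadjusted p below 0.05, MRPL27, MRPL35 and MRPL46, against 6.34% of all genes. The median change was 0.50 for the members, beside 0.32 for all tested genes, with 66 members above that all-gene median and 12 below. With the filter set at a mean of 5 TPM the all-gene median was 0.40, with 53 members above it and 25 below. By coding length, 895 of 959 tested genes of up to 513 nucleotides were also positive, as were 1195 of 1296 above that and up to 772. Of longer genes 7315 of 8658 were positive. From short to long, the medians of all tested genes in these classes were 0.445, 0.449 and 0.339. Those of the members were 0.57, 0.52 and 0.45. In 2 members, MRPL33 and MRPL53, every Dox+ library lay above every Dox- library, where 7.91% of all genes did, and in 0 members the groups were apart the other way, where 0.891% were.

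The shift was smaller once the libraries were scaled, and the Dox- libraries did not share it evenly. Dox- library 1 was below all Dox+ libraries for 78 of 78 members as deposited and for 35 after median-of-ratios scaling. Dox- library 2 was below all Dox+ libraries for 60 members as deposited and for 50 after scaling. As deposited, Dox- library 3 was below all Dox+ libraries for 3 members and above all of them for 26. No such counts were taken over all genes, so they do not set the members apart. The scaling factors were 0.58, 0.99 and 1.19 in Dox- libraries 1, 2 and 3, against 1.12 to 1.15 in Dox+ libraries. After scaling, the sums were 7386, 7643 and 9244 scaled TPM in Dox+ libraries, against 7268, 6696 and 8360 scaled TPM in Dox- libraries, so the groups overlapped. The median change of the members was then 0.13, beside 0.00 for all genes, with 57 members above 0 and 21 below. By coding length, from short to long, the scaled medians of all tested genes were 0.092, 0.102 and 0.012. Those of the members were 0.22, 0.15 and 0.088. No member had an unadjusted limma p below 0.05 after scaling, where 3.10% of all genes did, and 2 had groups apart, MRPL16 and MRPL53, both higher in Dox+, where 5.79% of all genes were higher and 5.93% lower in this way. None was called, where 0% of all genes were.

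**Figure D3:**
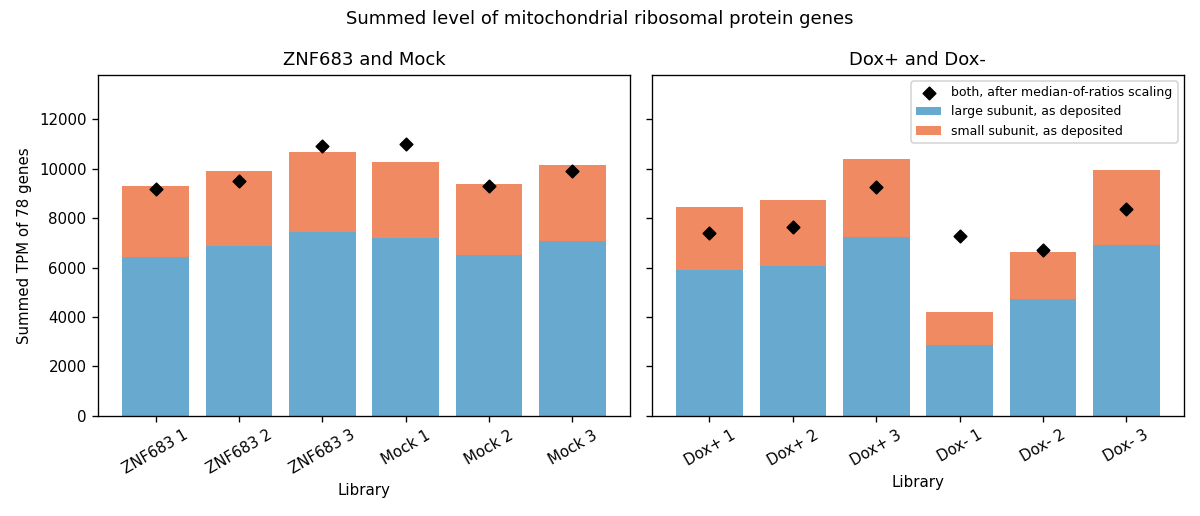
Summed TPM of the 78 genes in each library, ZNF683 and Mock at left and Dox+ and Dox- at right, with bars split into large (lower part) and small subunit genes as deposited, and diamonds for the total after median-of-ratios scaling. Dox- library 1 has the lowest bar, 4189 TPM, and its scaled total of 7268 lies near those of Dox+ libraries 1 and 2.

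MRPL27, a large subunit protein close to the peptidyl transferase centre, had the highest change. It was measured at 108, 113 and 142 TPM in Dox+ libraries 1, 2 and 3, against 42.9, 49.8 and 121 TPM in Dox- libraries 1, 2 and 3. Dox- libraries 1 and 2 were at less than every Dox+ library, and Dox- library 3 was inside the Dox+ range (log2 change 0.90 ± 0.43, limma unadjusted p = 0.036, adjusted p = 0.74; 0.54 ± 0.27 after scaling). MRPL35 followed at 93.3, 89.9 and 111 TPM in the Dox+ libraries, against 46.1, 31.5 and 100.3 TPM in the Dox- libraries, and MRPL46 at 68.8, 77.6 and 93.2 TPM in the Dox+ libraries, against 34.8, 24.0 and 93.4 TPM in the Dox- libraries. Dox- library 2 was the lowest library in both genes, lower than Dox- library 1 (log2 changes 0.88 ± 0.43 and 0.87 ± 0.43, limma adjusted p = 0.74 and 0.74). MRPL15 had 92.3, 108 and 133 TPM in the Dox+ libraries, against 49.3, 37.8 and 129.7 TPM in the Dox- libraries, again with Dox- library 2 lowest (log2 change 0.80 ± 0.43, limma adjusted p = 0.74). MRPL16, MRPL20 and MRPL54 had changes of 0.77 ± 0.43, 0.77 ± 0.43 and 0.75 ± 0.43.

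The 2 genes whose groups were apart were less extreme in fold. MRPL53 had 171, 168 and 190.1 TPM in Dox+ libraries 1, 2 and 3, against 72.3, 138 and 160.2 TPM in Dox- libraries 1, 2 and 3 (log2 change 0.59 ± 0.43, limma adjusted p = 0.74). It was also apart after scaling, at 0.22 ± 0.12. MRPL33 had 145, 145 and 156 TPM in Dox+ libraries 1, 2 and 3, against 64.8, 143 and 134 TPM in Dox- libraries 1, 2 and 3, where Dox- libraries 2 and 3 came close to the Dox+ libraries (log2 change 0.46 ± 0.43; 0.09 ± 0.14 after scaling). In the small subunit the highest change was that of MRPS28, at 84.9, 93.9 and 119.8 TPM in the Dox+ libraries, against 42.5, 39.9 and 102 TPM in the Dox- libraries (log2 change 0.81 ± 0.43, limma adjusted p = 0.74). MRPS7 and MRPS16 followed with 0.77 ± 0.43 and 0.76 ± 0.43.

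The members with the lowest changes were MRPS30, MRPS6, MRPL48, MRPS5 and MRPL32. MRPS30, a large subunit protein despite its symbol, had 53.5, 53.0 and 61.5 TPM in Dox+ libraries 1, 2 and 3, against 28.6, 65.9 and 65.4 TPM in Dox- libraries 1, 2 and 3. Dox- library 2 was the highest of the 6 and Dox- library 1 the lowest (log2 change 0.16 ± 0.43; -0.20 ± 0.16 after scaling). MRPS6, a platform protein, had 75.0, 79.8 and 89.7 TPM in the Dox+ libraries, against 38.9, 107 and 83.4 TPM in the Dox- libraries, again with Dox- library 2 highest and Dox- library 1 lowest (log2 change 0.21 ± 0.43; -0.16 ± 0.21 after scaling). MRPL48, MRPS5 and MRPL32 differed by 0.21 ± 0.43, 0.24 ± 0.43 and 0.25 ± 0.43 as deposited and by -0.16, -0.13 and -0.12 after scaling. All 5 changes are positive as deposited and negative after scaling, so their direction depended on the scale.

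By role, the decoding protein MRPS12 differed by 0.50 ± 0.43 and by 0.14 ± 0.23 after scaling. MRPL3, MRPL2 and MRPL16 near the catalytic centre differed by 0.18, -0.03 and 0.41 after scaling. The stalk proteins MRPL10, MRPL11 and MRPL12 were at -0.01, 0.18 and 0.25, the tunnel and membrane proteins MRPL23, MRPL24 and MRPL45 at 0.28, 0.35 and 0.17, and MRPL58 at 0.24. Their limma adjusted p as deposited was at least 0.74 after rounding. Before scaling limma estimated an unlimited prior in this table, so that all members had a standard error of about 0.43, whatever their own spread.

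Dox- library 2 differed from the rest in the pattern among members. The standard deviation of the members' deviations, taken as above, was 0.42 in Dox- library 2, against 0.10 to 0.15 in the other 5 libraries of the table. MRPL46, MRPL35, MRPL15 and MRPS7 deviated by -0.89, -0.81, -0.76 and -0.69 on the log2 scale. At the other end MRPS6, MRPL41, MRPS5 and MRPL52 deviated by 0.85, 0.72, 0.70 and 0.70. After scaling, MRPL46 stood at 24.2 in Dox- library 2, against 60.1 to 82.9 in the Dox+ libraries and 60.4 and 78.5 in the other two Dox- libraries, and MRPS6 stood at 108 in Dox- library 2, against 65.4 to 79.8 in all others. Both subunits had members at both ends. The YY1 letters are found in 21 members, on both sides of 0. MRPL46, MRPS7 and MRPL20, which hold them, were low, as was MRPS18A at -0.51. MRPS30 and MRPL52 were high, as were MRPL36 at 0.61 and MRPL32 at 0.55, while MRPS18B was at 0.03. A link between the letters and the deviations was not tested.

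**Figure D4:**
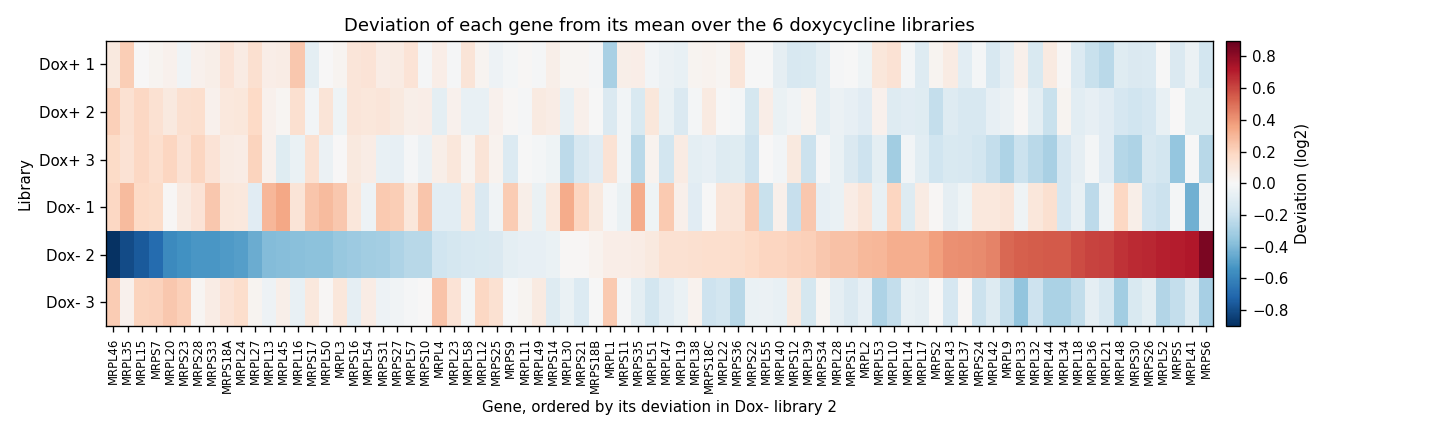
Deviation (log2, colour) of each of the 78 genes in each of the 6 doxycycline libraries, Dox+ above Dox-, relative to the library's median over these genes and to the gene's mean, with genes ordered by their value in Dox- library 2. Dox- library 2 runs from -0.89 for MRPL46 to 0.85 for MRPS6, while the other 5 libraries stay between -0.44 and 0.35.

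The same library stood apart in other genes. HSPA6, a strictly heat-inducible HSP70, was at 637 TPM in Dox- library 2, against 0.183 to 0.351 TPM in the Dox+ libraries and 0.113 and 0.341 TPM in the other two Dox- libraries. Among stress genes linked to mitochondrial dysfunction, DDIT3 was at 19.2, 14.3 and 15.3 TPM in the Dox+ libraries, against 12.5, 171 and 22.1 TPM in the Dox- libraries, and ASNS at 42.1, 24.6 and 19.1 TPM in the Dox+ libraries, against 42.0, 104 and 35.7 TPM in the Dox- libraries. Neither was called (limma adjusted p = 0.51 and 0.72). The markers of other cells summed to 50.7 TPM in Dox- library 2, against 30.6 to 34.6 TPM in Dox+ libraries and 14.2 and 29.7 TPM in the other two Dox- libraries. Of the 4 such markers tested in this table, the B cell marker CD79A had 29.7, 29.9 and 25.9 TPM in the Dox+ libraries, against 11.8, 8.90 and 24.2 TPM in the Dox- libraries, with Dox- library 2 the lowest. The fibroblast marker COL1A1 and the erythroid marker HBA1 were at 17.0 and 19.5 TPM there and at 1.5002 TPM or less elsewhere in the table. As deposited, the T cell markers summed to 4143, 3928 and 3814 TPM in Dox+ libraries, against 1657, 1747 and 3368 TPM in Dox- libraries. Their median change was 0.77 as deposited and 0.40 after scaling, with 10 of 10 above 0 in each. The part of these differences in the levels of the ribosomal protein genes was not tested.

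Calls in this comparison depended on which Dox- libraries were used. Without Dox- library 3, 32 members were called higher in Dox+ by limma, 41.0% of the members, where 18.2% of all genes were called higher, and the smallest adjusted p was 0.03. A total of 60 members then had all Dox+ libraries above the other two Dox- libraries, where 49.5% of all genes did, and 0 had them below, where 1.57% did. The median change of the 78 members was then 0.81, beside 0.50 for all genes. Without Dox- library 1 the median was 0.20 and none was called, where 0% of all genes were, and 2 members were higher and 2 lower without overlap, where 7.95% and 11.9% of all genes were. Without Dox+ library 1 or 2, 5 members were higher and 0 lower without overlap; 11.5% and 10.1% of all genes were higher in these fits, and 1.88% and 1.35% lower. With Dox- libraries 1 and 2 both left out, the median was -0.15, 69 members were below 0 and 9 above, 26 were lower and 3 higher without overlap, where 35.2% and 14.0% of all genes were, and none was called. That fit rests on 1 Dox- library, which is assumed to vary like the Dox+ libraries.

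The medians of small and large subunit members lay close together in both comparisons. The median change was 0.08 for small and 0.02 for large subunit members between ZNF683 and Mock, and 0.54 and 0.48 between Dox+ and Dox-. After scaling these were 0.05 and -0.01, and 0.17 and 0.11. The ratio of summed small to summed large subunit TPM was 0.451, 0.443 and 0.434 in ZNF683 libraries, against 0.431, 0.440 and 0.434 in Mock libraries, and the groups overlapped. It was 0.440, 0.439 and 0.434 in Dox+ libraries, against 0.454, 0.408 and 0.440 in Dox- libraries, with the Dox- libraries on both sides of the Dox+ libraries. With subunits assigned by structure the small minus large difference of medians was 0.05 in both comparisons, where the symbol gave 0.06 in both. It was -0.02 for Dox+ and Dox- without Dox- library 2.

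**Figure D5:**
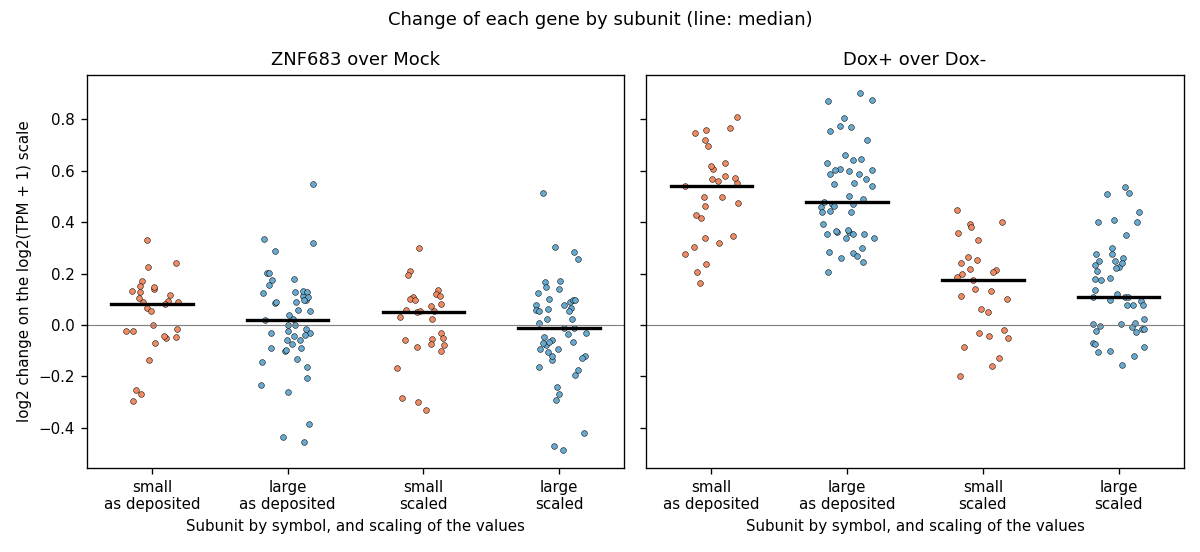
Log2 change on the log2(TPM + 1) scale of each gene, ZNF683 over Mock at left and Dox+ over Dox- at right, as 1 point per gene by subunit, as deposited and after median-of-ratios scaling, with the median as a line. Medians for Dox+ over Dox- are 0.54 and 0.48 as deposited and 0.17 and 0.11 after scaling for small and large subunit genes.

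Median changes of members with and without a bacterial counterpart were 0.00 and 0.09 between ZNF683 and Mock, and 0.49 and 0.50 between Dox+ and Dox-. A difference between the 2 effects was tested in a fit over all 12 libraries. It is the ZNF683 over Mock change minus the Dox+ over Dox- change. This difference cannot separate doxycycline from the induction of ZNF683, since the labels are silent on doxycycline for Mock cells. By limma 0 of 78 members were called, where 0.0138% of the 14468 genes tested were, and 3 had an unadjusted p below 0.05, MRPL53, MRPL33 and MRPL27, against 3.75% of all genes. MRPL53 differed by -1.02 ± 0.44 and MRPL33 by -0.91 ± 0.42 (limma adjusted p = 0.88 for both). After median-of-ratios scaling these were -0.69 ± 0.34 and -0.58 ± 0.27 (limma adjusted p = 0.94 for both), no member had an unadjusted p below 0.05, where 3.51% of all genes did, and the median difference of the members was -0.12, against -0.46 as deposited. Without Dox- library 3 there were 36 members called, where 17.7% of all genes were.

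No other gene of mitochondrial translation was called in either comparison. The 5 mitoribosomal subunits named otherwise, DAP3, CHCHD1, AURKAIP1, PTCD3 and GADD45GIP1, summed to 756, 788 and 834 TPM in ZNF683 libraries, against 813, 761 and 835 TPM in Mock libraries, and to 616, 613 and 702 TPM in Dox+ libraries, against 309, 567 and 716 TPM in Dox- libraries. Their median changes were -0.02 and 0.32 as deposited, beside 0.03 and 0.32 for all genes, and -0.05 in both comparisons after scaling. Of 25 tested genes for assembly of the mitoribosome and modification of its RNA, 17 were above 0 between ZNF683 and Mock and 24 between Dox+ and Dox-, with medians of 0.17 and 0.48, and 0 were called in either direction. After scaling 17 and 19 were above 0, with medians of 0.14 and 0.13. MRM2, a methyltransferase of the large ribosomal RNA, was at 83.8, 84.7 and 70.4 TPM in the ZNF683 libraries, against 56.5, 59.6 and 69.3 TPM in the Mock libraries (log2 change 0.36 ± 0.12, limma adjusted p = 0.33). Its groups did not overlap, where 8.71% of all genes were higher and 8.51% lower in this way. MTERF4, which guides assembly of the large subunit, was at 26.6, 26.6 and 26.8 TPM in the ZNF683 libraries, against 22.0, 23.2 and 21.3 TPM in the Mock libraries, with no overlap between the groups (log2 change 0.26 ± 0.09, limma adjusted p = 0.35).

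Among the 15 translation factors 0 were called, with medians of 0.11 between ZNF683 and Mock and 0.45 between Dox+ and Dox-. After scaling these were 0.073 and 0.088, with 11 and 8 of the 15 above 0. TSFM, the exchange factor of the mitochondrial elongation factor Tu, had 70.6, 74.4 and 69.2 TPM in the ZNF683 libraries, against 55.5, 52.9 and 65.4 TPM in the Mock libraries (log2 change 0.30 ± 0.11, limma adjusted p = 0.35). Its groups did not overlap, where 8.71% of all genes were higher in this way. MTIF3, an initiation factor, had 78.9, 79.2 and 75.4 TPM in the Dox+ libraries, against 37.1, 39.2 and 71.5 TPM in the Dox- libraries, and its groups did not overlap (log2 change 0.71 ± 0.43, limma adjusted p = 0.74). Between Dox+ and Dox-, 7.91% of all genes were higher in this way. The 17 mitochondrial aminoacyl-tRNA synthetases had medians of 0.16 and 0.56, and the 9 genes of mitochondrial RNA synthesis 0.14 and 0.48, with none called in either list. After scaling the medians were 0.13 and 0.20 for the synthetases and 0.11 and 0.11 for RNA synthesis.

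The RNAs that these ribosomes contain and translate were measured beside them. The 2 mitochondrial ribosomal RNAs summed to 1328, 1162 and 1276 TPM in ZNF683 libraries, against 710, 776 and 1428 TPM in Mock libraries, and to 2754, 2320.1 and 2047 TPM in Dox+ libraries, against 1512, 4018 and 2680 TPM in Dox- libraries. Mock library 3 and Dox- library 2 were the highest of their tables. The median change of the 2 ribosomal RNAs between ZNF683 and Mock was 0.45 as deposited and 0.42 after scaling, with 2 above 0 in each. Between Dox+ and Dox- it was -0.03 as deposited, with 1 above 0, and -0.40 after scaling, with 0 above 0. The 13 mitochondrially encoded messenger RNAs summed to 39589, 36218 and 28769 TPM in Dox+ libraries, against 16078, 20385 and 32760 TPM in Dox- libraries, with Dox- library 3 inside the Dox+ range. MT-ATP6, a subunit of the ATP synthase, had 4005, 3673 and 2998 TPM in the Dox+ libraries, against 1369, 1028 and 2744 TPM in the Dox- libraries, without overlap (log2 change 1.17 ± 0.42, limma adjusted p = 0.43). Between Dox+ and Dox-, 7.91% of all genes were higher without overlap. None of the 13 was called. Between Dox+ and Dox- 5 had an unadjusted limma p below 0.05, beside 6.34% of all genes, and between ZNF683 and Mock 1 had, beside 13.0% of all genes. The median change between Dox+ and Dox- was 0.65 with 13 above 0 as deposited, and 0.28 with 9 above 0 after scaling.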

How the data were processed

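RNA was taken from Jurkat cells with a Qiagen RNeasy kit and sequenced from NEBNext low input libraries, per the labels' protocols. The authors deposited 2 tables of TPM per gene symbol, each for 6 libraries. Tools listed in the submitters' processing notes, without their steps, are kallisto 0.46.0 and DESeq2 1.22.2, and the genome build and transcript set are not given in the sources used here. TPM keeps no record of depth, so no counting interval was computed.

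Values were taken to log2(TPM + 1) and genes under a mean of 1 TPM in a table's 6 libraries were left out. Tests were two-sided, by limma 3.58.1 (R 4.3.3) with a mean-variance trend and Benjamini-Hochberg adjustment over all genes tested at 0.05. The 2 tables were fitted apart, and the difference of the 2 effects over all 12 libraries. In data simulated with independent noise in each gene, the median fitted change lay near the change put in. Shifts shared by a whole library were not simulated, so that check does not measure missed or false calls in the doxycycline table. Alternatives were median-of-ratios scaling, leaving out AL135790.1, a pseudocount of 0.1, no filter or one at 5 TPM, robust moderation, no trend, a replicate block and leaving out libraries. Sums, ratios, medians and correlations over members are descriptions with no test. Groups do not overlap when all 3 libraries of one lie beyond all 3 of the other. The smallest exact permutation p for 3 against 3 is 0.1. Coding length is that of the longest coding transcript in GENCODE release 29, and promoter windows come from RefSeq on GRCh38.p14.

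The members, lists, motifs and named genes were chosen with earlier results of these data known. Named were the 5 largest and 5 smallest changes per comparison, the next 5 by p, the 5 highest and 5 lowest levels per table, a panel by role, and up to 3 genes of each other list by p, of which the text gives those it uses. AL135790.1 and HSPA6 were named because earlier results set Dox- libraries apart by them.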

Additional observations from a re-analysis of the deposited data

How the results depend on the processing

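No mitochondrial ribosomal protein gene was called between ZNF683 and Mock under any alternative run, and their median change stayed between 0.01 and 0.07 when single libraries were left out. Between Dox+ and Dox- 0 to 32 members were called when single libraries were left out, 32 without Dox- library 3 and 0 in every other such fit. Likewise 0 to 36 were called for the difference of the 2 effects. Without Dox- library 3, 18.2% of all genes were called higher between Dox+ and Dox-, and 17.7% were called for the difference. The median change of the members between Dox+ and Dox- ran from 0.20 to 0.81 when single libraries were left out. The log2 ratio of the mean sums ran from 0.15 to 0.76. These became -0.15 and -0.11 without Dox- libraries 1 and 2, an alternative chosen after seeing the data. Members with groups apart, 4 between ZNF683 and Mock, numbered 7 after median-of-ratios scaling and 6 to 37 without 1 library, the most without ZNF683 library 3, where 25.2% of all genes were higher and 16.8% lower. Between Dox+ and Dox-, where there were 2, they ran from 2 to 60, the most without Dox- library 3, where 49.5% of all genes were higher and 1.57% lower, and were 29 without Dox- libraries 1 and 2, where 14.0% were higher and 35.2% lower. Fewer libraries leave groups apart more often by construction.

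Over all genes, the 5 calls between ZNF683 and Mock became 3 with a pseudocount of 0.1, 0 with no filter, 0 with a filter at 5 TPM, 8 with robust moderation and 0 to 49 without 1 library. The 60 calls between Dox+ and Dox- became 0 after scaling, 0 with AL135790.1 left out, 0 with no filter, 15 with a filter at 5 TPM, 23 with robust moderation, 0 to 2788 without 1 library and 0 without Dox- libraries 1 and 2. The cause was not tested.

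Whether the replicate numbers pair the libraries was not settled. The correlations of same-numbered deviations were -0.21, 0.07 and -0.25 between ZNF683 and Mock and 0.08, 0.05 and 0.36 between Dox+ and Dox-. Those of differently numbered libraries ran from -0.18 to 0.31 and from -0.33 to 0.20. Deviations from a mean of 3 libraries depend on each other, so these values cannot decide it. A replicate block gave 0 and 34 calls over all genes and 0 members in both comparisons. In the difference of the 2 effects it gave 60 calls over all genes, against 2 without it, and again 0 members.

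All 78 members were above 0 between Dox+ and Dox- as deposited, and 21 were below 0 after scaling, 11 with AL135790.1 left out, 17 without Dox- library 1 and 69 without Dox- libraries 1 and 2. Among the members named for their change, 5 turned in each of these. After scaling, with AL135790.1 left out, and without Dox- libraries 1 and 2, MRPS30 differed by -0.20, -0.14 and -0.22, MRPS6 by -0.16, -0.10 and -0.038, MRPL48 by -0.16, -0.094 and -0.019, MRPS5 by -0.13, -0.067 and -0.11, and MRPL32 by -0.12, -0.058 and -0.13. Over the fits that leave out 1 library they ran from -0.23 to 0.36, -0.21 to 0.50, -0.11 to 0.41, -0.17 to 0.47 and -0.10 to 0.43 in that order, the lowest without Dox- library 1. Without Dox- libraries 1 and 2 a further 8 of the named members turned: MRPL27 (-0.011), MRPL35 (-0.039), MRPL46 (-0.23), MRPS28 (-0.048), MRPL15 (-0.24), MRPL20 (-0.29), MRPS7 (-0.26) and MRPL54 (-0.13). TPM keeps no read number, so no limit from depth could be computed.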
